A study of Mus musculus with 8 samples.

Results

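*Il17b* and *Dcx* are 2 of the 19465 genes covered by the probes of 8 Visium sections of embryonic mouse diaphragm, the muscle of breathing. They were chosen by name as genes of early muscle. The comparison behind that choice is not stated and was taken to be the fall of their counts in control muscle from embryonic stage E14.5 to E18.5 in these sections. That fall is therefore a description here and carries no test. Genotype, spot position and the stage change inside the CaV1.1 knockout were tested as other contrasts. Whether the level in muscle against other spots at E14.5 had a part in the choice is not known, so that test is no independent support for the name. On GRCm38 (GENCODE annotation), *Il17b* lies on chromosome 18 from 61684887 to 61692538 on the plus strand, with an antisense gene, *Gm38165*, inside it, and *Dcx* lies on chromosome X from 143855842 to 143933311 on the minus strand. The positions of the probes on the transcripts were not used here.

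*Il17b* encodes interleukin-17B, a secreted cytokine of the IL-17 family. Cytokines of this family bind heteromeric receptors that share the subunit IL-17RA, and IL-17B is known to bind IL-17RB. Signals pass through the adaptor Act1 (*Traf3ip2*) and the ubiquitin ligase TRAF6. *Dcx* encodes doublecortin, a protein that binds and stabilizes microtubules and is best known from young, migrating neurons. Its close relatives *Dclk1*, *Dclk2* and *Dclk3* join doublecortin domains to a kinase domain. LIS1 (*Pafah1b1*), *Ndel1* and *Nde1* are dynein regulators that act with doublecortin in neuronal migration. In the diaphragm, muscle fibers run from the ribs to the central tendon, with their neuromuscular junctions in a central band and their myotendinous junctions at both ends.

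Control diaphragms were read in 3 sections at E14.5 and 2 at E18.5. Control embryos carry at least 1 working allele of CaV1.1 and of β-catenin and may be heterozygous. The CaV1.1 -/- embryos (KO, 1 section at E14.5 and 1 at E18.5) lack the voltage sensor of skeletal muscle, the channel CaV1.1, in every cell. The β-cat cKO (1 section at E18.5) is HSA-Cre with β-catenin flox/flox, in which the human skeletal actin promoter drives Cre in muscle fibers while the other cells keep β-catenin. Each section is 5 µm of fixed, paraffin-embedded tissue, read on spots 55 µm wide at a spacing of 100 µm, so that a spot mixes several cells. With 1 section for each mutant, the spread of a mutant is taken from the controls, and the sex and litter of the embryos were not given in the sources used here.

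The sections hold from 14179161 to 82859104 unique molecular identifiers (UMIs, the counted molecules). Spots with at least 1000 UMIs were kept, and muscle spots were set in each section by 9 sarcomere genes, of which neither gene studied here is one. This gave from 491 to 3092 muscle spots and from 102 to 580 other spots per section. The sarcomere genes made up from 16200 to 132000 of every 1000000 UMIs in the muscle spots. *Cacna1s*, which encodes CaV1.1, was at 31.4 UMIs per 1000000 (CPM) in KO muscle at E18.5 and at 61.2 and 63.9 in the controls, whereas at E14.5 it was at 16.2 in the KO and from 18.3 to 22.8 in the controls. *Ctnnb1* (β-catenin) was at 81.5 in cKO muscle and at 75.9 and 71.2 in the E18.5 controls. Where the probes lie relative to the mutated or deleted parts was not used here, so these levels check no label. The Y-linked genes *Ddx3y*, *Uty*, *Kdm5d* and *Eif2s3y* had between 0 and 2 UMIs each in muscle of E14.5 control 1 and of both KO sections, and at least 414 in each of the other 5 sections. At E18.5 both controls and the cKO thus carry Y transcripts and the KO does not, and for the KO at E18.5 genotype and these transcripts cannot be told apart.

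In control muscle both genes were abundant at E14.5 and scarce at E18.5. *Il17b* stood at 179, 146 and 176 CPM of the muscle spots in E14.5 controls 1, 2 and 3. In E18.5 controls 1 and 2 it stood at 7.20 and 4.75. *Dcx* stood at 146, 116 and 115 CPM at E14.5 and at 8.77 and 6.32 at E18.5. The sections of the stages lie far apart for both genes, as the choice of the genes fixed. Fitted folds rest on totals scaled by TMM, which sets the bulk of genes to no change. In the fit of all 8 sections, *Il17b* was 16.8-fold lower (log2 fold change -4.07, SE 0.21) and *Dcx* 10.1-fold lower (-3.34, SE 0.20) at E18.5. On plain library totals, the scale of the CPM values, these differences were -4.79 and -4.05, and the median of all genes stood at -0.73. Behind these levels stand 3695, 4293 and 2253 UMIs of *Il17b* at E14.5, and 546 and 299 at E18.5. For *Dcx* the muscle spots hold 3016, 3418 and 1480 UMIs at E14.5 and 665 and 398 at E18.5. Fewer cells that express a gene and less RNA per cell cannot be told apart in such sums.

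**Figure D1:**
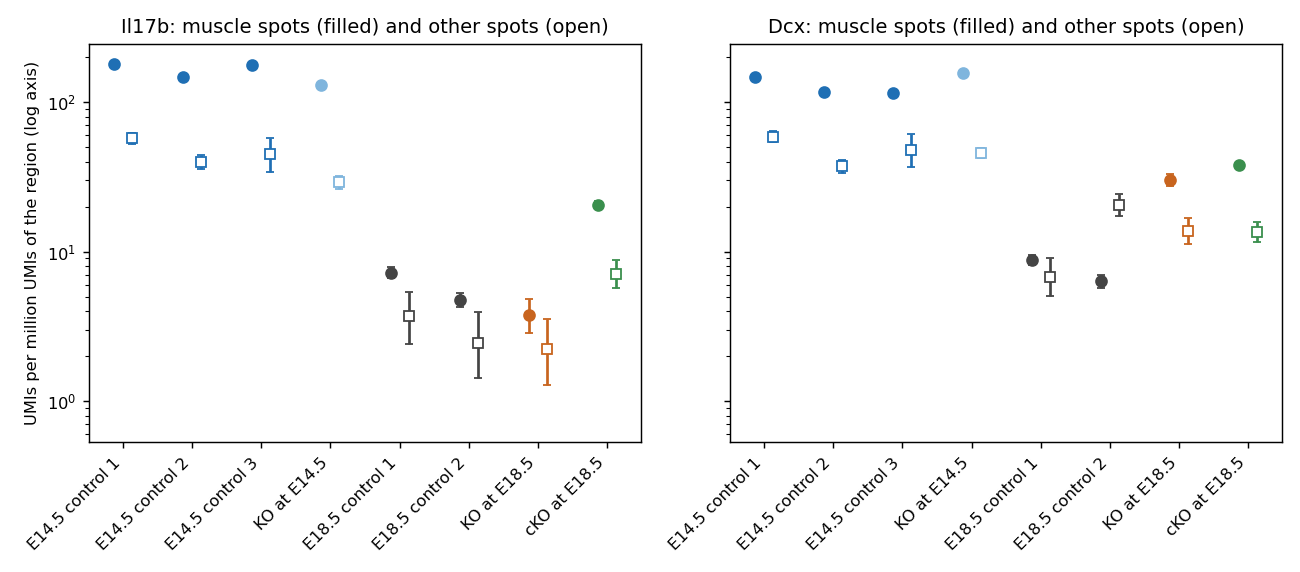
Level of *Il17b* and *Dcx* in each section, as UMIs per 1000000 UMIs of the region on a log axis, for muscle spots (filled circles) and other spots (open squares), with 95% Poisson intervals that cover counting error only. Muscle lies above the other spots in every section for *Il17b*, and for *Dcx* in all but E18.5 control 2, where muscle stands at 6.32 and the other spots at 20.6.

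The fall showed spot by spot as well. At E14.5, 84.2%, 91.1% and 92.3% of muscle spots in controls 1, 2 and 3 held at least 1 UMI of *Il17b*. After thinning of every spot to 5000 UMIs these shares were 54.5%, 49.5% and 56.7%. At E18.5, thinned shares of 3.35% and 2.3% remained, from 15.2% and 12.3% unthinned. For *Dcx* the thinned shares were 48.9%, 43.5% and 43.5% at E14.5 and 4.07% and 3.15% at E18.5. Thinning left out between 5 and 47 muscle spots of a control section that were shallower than 5000 UMIs. In the other spots of the same sections the thinned share of *Il17b* was between 16.9% and 25.9% at E14.5 and 1.69% and 1.04% at E18.5, with a median spot of 13326.5 to 35148 UMIs against 18115 to 49950 in muscle of all 5 control sections.

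The authors deposited a score of spatial clustering, Moran's I, for each gene and section, which rises when neighboring spots have like values. *Il17b* ranked among the top 2.18%, 1.01% and 0.689% of scored genes in E14.5 controls 1, 2 and 3 (scores 0.193, 0.374 and 0.300), and among the top 26.9% and 44.2% in E18.5 controls 1 and 2 (0.0406 and 0.0288). *Dcx* ranked among the top 9.03%, 3.72% and 2.24% at E14.5. In E18.5 control 1 it was in the top 20.2%, and in control 2 in the top 10.6% with a score of 0.140 against 0.0539. In the KO and the cKO at E18.5 *Dcx* was in the top 11.2% and 6.98%, and *Il17b* in the top 54.7% and 15.7%. The counts behind these scores differ as widely as the levels, and their part in the scores was not tested.

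Position was read first as muscle against all other spots of the section. At E14.5 both genes were higher in muscle. *Il17b* stood at 57.1, 39.8 and 44.9 CPM in the other spots of controls 1, 2 and 3, and *Dcx* at 58.7, 37.1 and 47.9, all below the muscle value of the same section. The difference was 4.07-fold for *Il17b* (log2 2.02, SE 0.08, n = 3 sections, adjusted p = 5.9e-05, edgeR) and 3.12-fold for *Dcx* (log2 1.64, SE 0.27, adjusted p = 0.0035, edgeR). Of all genes tested, 21.8% were called higher and 15.6% lower in muscle at this stage. Muscle spots held 86.7%, 91.9% and 97.4% of the *Il17b* UMIs of E14.5 controls 1, 2 and 3, and 67.5%, 75.6% and 90.6% of all UMIs.

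*Il17b* kept this position at E18.5 at its far lower level. It stood at 7.20 CPM in muscle and 3.69 in the other spots of control 1, and at 4.75 and 2.46 in control 2. Muscle was 3.15-fold higher (log2 1.66, SE 0.15, n = 2 sections, adjusted p = 8.8e-05, edgeR), where 29.1% of genes were called higher and 24.1% lower. Between the stages the muscle enrichment of *Il17b* differed by -0.37 (SE 0.18, adjusted p = 0.34, edgeR), which did not pass the threshold. On plain library totals it was -0.85 (adjusted p = 0.013), a call that followed from that scaling, chosen after seeing the data. The other spots of E18.5 controls 1 and 2 hold only 26 and 17 *Il17b* UMIs, so the size of the difference there is less sure than at E14.5.

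For *Dcx* the E18.5 controls went opposite ways. In control 1 muscle stood at 8.77 CPM and the other spots at 6.81, and in control 2 muscle stood at 6.32 and the other spots at 20.6. Over both sections muscle and other spots differed by -0.09 (SE 0.38, adjusted p = 0.86, edgeR). Fitted without control 2 the difference was 1.0 (adjusted p = 0.0098) and without control 1 it was -0.99 (adjusted p = 0.0042), so the sections differ in sign. In these fits 1 section stands for E18.5 and is assumed to vary like the E14.5 sections. The muscle enrichment of *Dcx* was lower at E18.5 than at E14.5 by 1.73 on the log2 scale (value -1.73, SE 0.47, adjusted p = 0.043, edgeR; 6.36% of genes were called lower). That call was lost without the section as a block (adjusted p = 0.063), without any single E14.5 control or without E18.5 control 2, where the value was -0.63.

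The *Dcx* counts outside muscle in E18.5 control 2 were concentrated. Its 10 richest spots hold 17.0% of all *Dcx* UMIs of that section, and 15 UMIs were the most in 1 spot, against 5 in control 1. When the 5% of spots of each section with the most UMIs of 7 neuron genes (*Elavl3*, *Elavl4*, *Stmn2*, *Snap25*, *Tubb3*, *Nefl* and *Nefm*) were set apart, a choice made after seeing the data, 70 of them lay outside muscle in control 2. These spots hold *Dcx* at 76.3 CPM (124 UMIs), whereas the remaining 256 other spots of that section hold it at 3.41 (18 UMIs). In the same spots *Tubb3*, neuronal β-tubulin, stood at 336 CPM against 1.89 in the rest, and *Elavl3*, an RNA-binding protein of neurons, at 77.6 against 0.568. Both are among the 7 genes that set these spots apart, so their excess follows from the choice of spots. In control 1 the neuron-rich spots outside muscle hold *Dcx* at 18.9 CPM (17 UMIs) and the others at 5.04.

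With the neuron-rich spots left out, *Dcx* was higher in muscle at both stages. The values were 8.68 CPM in muscle against 5.04 outside in E18.5 control 1, and 6.03 against 3.41 in control 2. The difference at E18.5 was then 1.43 (SE 0.17), which reverses the sign of the value over all spots. In control 2 this step took out 124 of the 142 *Dcx* UMIs outside muscle and 27 of the 398 in muscle. A higher value was thus built into a step chosen after seeing the data. For *Dcx*, the E18.5 value and the difference between the stages without these spots are descriptions and no test. At E14.5 the difference of *Dcx* was 1.69 with an SE of 0.08, against 0.27 with all spots. The difference between the stages fell to -0.26. Not all 7 neuron genes marked the spots left out outside muscle at E14.5. In control 2 *Stmn2* stood at 241 CPM there against 21.8 in the rest and *Nefm* at 104 against 14.6. *Tubb3* stood at 1.91 against 1.64 and *Snap25* at 1.27 against 1.89, and *Elavl3* was absent there. In control 3 *Nefm* stood at 113 against 2.53, and *Elavl3* and *Elavl4* were absent there. *Il17b* had 2 UMIs in the neuron-rich spots outside muscle of each E18.5 control (2.23 and 1.23 CPM), and it stayed higher in muscle without them (1.47, SE 0.19, adjusted p = 0.00020, edgeR). In muscle itself, leaving out neuron-rich spots moved *Dcx* by little, from 8.77 to 8.68 and from 6.32 to 6.03 CPM at E18.5 and by less than 1 CPM in E14.5 controls. This took out few muscle spots, 124 of 3092 and 56 of 2199 at E18.5 and 4, 9 and 21 at E14.5, so the sums could move little. Those spots held *Dcx* at 11.3 and 18.6 CPM at E18.5 and at 165, 107 and 117 at E14.5. Whether neurons add to *Dcx* within muscle was not tested. All 7 neuron genes have UMIs in muscle of every section, with a summed level between 17.4 and 36.5 CPM.

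**Figure D2:**
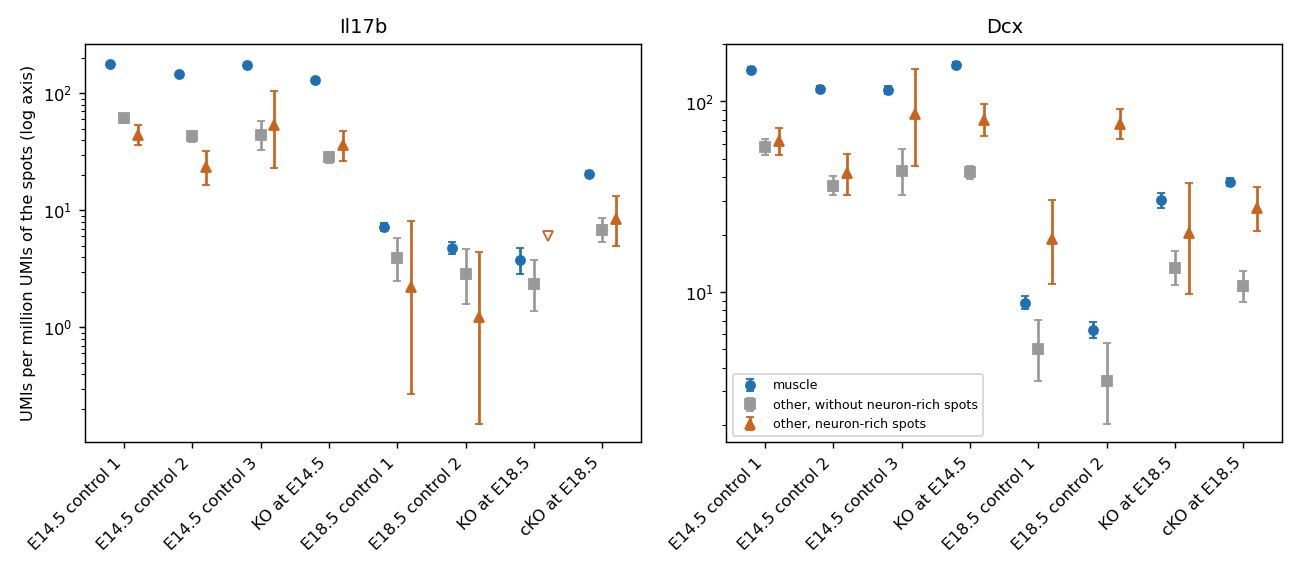
*Il17b* and *Dcx* in muscle spots, in other spots without the neuron-rich ones and in neuron-rich other spots of each section, in UMIs per 1000000 on a log axis with 95% Poisson intervals. The open triangle marks the level of 3 UMIs where none was counted. Neuron-rich spots outside muscle stand out for *Dcx* in E18.5 control 2, at 76.3 against 6.32 in muscle.

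Between regions of muscle scored by marker genes, the genes ran in opposite directions at E14.5. By distance from the edge of muscle, given further below, the sign of *Dcx* was the other way. The center, the 15% of muscle spots richest in 8 endplate genes, was compared with the periphery, the 15% richest in 4 genes of the myotendinous junction. *Il17b* stood at 220, 197 and 197 CPM in the center and at 134, 125 and 147 in the periphery of controls 1, 2 and 3, higher in the center in 3 of 3 sections. *Dcx* stood at 121, 104 and 85.3 CPM in the center and at 196, 186 and 124 in the periphery, lower in the center in 3 of 3 sections. *Il17b* was 1.61-fold higher in the center (log2 0.69, SE 0.07, adjusted p = 1.1e-07, edgeR) and *Dcx* 1.57-fold lower (log2 -0.65, SE 0.07, adjusted p = 1.7e-07, edgeR). In this comparison 11.3% of genes were called higher and 8.26% lower in the center.

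At E18.5 both genes were lower in the center. *Il17b* stood at 6.24 and 2.92 CPM in the center of controls 1 and 2 and at 9.01 and 6.25 in the periphery, from 72, 29, 106 and 56 UMIs. *Dcx* stood at 7.10 and 4.94 CPM in the center, at 7.13 and 5.27 in between, and at 17.8 and 13.1 in the periphery. The periphery thus held the excess of *Dcx*, with the center and the intermediate spots at like levels. The difference was -1.29 for *Dcx* (SE 0.15, adjusted p = 4.6e-07, edgeR) and -0.65 for *Il17b* (SE 0.19, adjusted p = 0.019, edgeR), where 10.7% of genes were called higher and 8.62% lower. The call of *Il17b* was lost without E18.5 control 2 (-0.48, adjusted p = 0.25) and with DESeq2 (-0.67, adjusted p = 0.18).

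The difference between the stages was tested itself, in contrasts added after seeing the data. The position of *Il17b* shifted from center to periphery by -1.34 (SE 0.21, adjusted p = 0.00014, edgeR), and 4.01% of genes were called in that direction. That of *Dcx* shifted in the same direction by -0.63 (SE 0.16, adjusted p = 0.017, edgeR), a call lost in 5 of 16 alternatives. These were the fits without either E18.5 control, with DESeq2, without the section as a block (adjusted p = 0.61) and with regions of 10% (adjusted p = 0.057). The call of *Il17b* was lost without the block (adjusted p = 0.068), and by distance the value was -0.67 (adjusted p = 0.023). Leaving out neuron-rich spots, or scoring the periphery without *Uchl1*, a gene also active in neurons, left all 4 differences of center and periphery in controls called with the same sign.

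**Figure D3:**
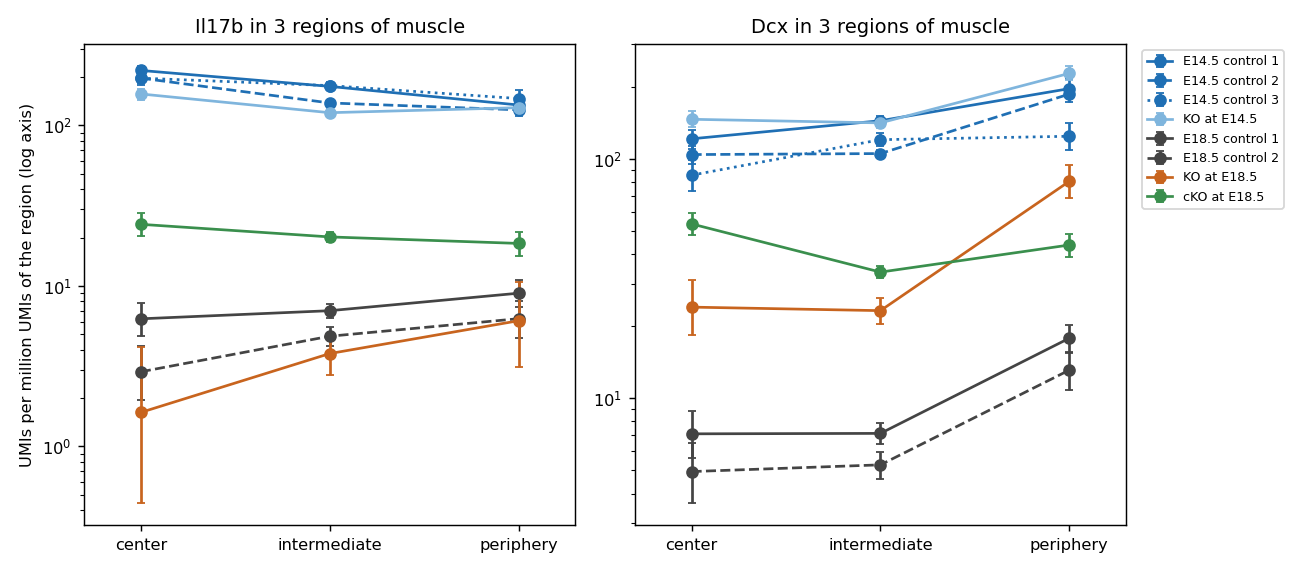
Level of both genes in the center, the intermediate part and the periphery of muscle in each section, in UMIs per 1000000 on a log axis with 95% Poisson intervals. In the E14.5 controls the lines of *Il17b* run down from center to periphery and those of *Dcx* run up, whereas in the E18.5 controls both run up. In the KO at E14.5 *Il17b* goes from 157 to 120 and 129 and *Dcx* from 146 to 141 and 227.

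Distance from the edge of muscle gave another view, since the scored periphery is not the same as the rim of muscle spots. Here the edge is the nearest spot of the section outside muscle. A muscle spot at a border with no tissue beyond it is thus not counted as rim, and an other spot inside muscle makes a rim around it. In E14.5 control 3, with 102 other spots, 304 of 581 muscle spots lay beyond 350 µm. *Il17b* was lower at the rim than in the depth at E14.5, from 138, 121 and 103 CPM within 150 µm of the edge to 223, 191 and 188 beyond 350 µm in controls 1, 2 and 3. At E18.5 its bins from the rim inward stood at 9.22, 7.60, 8.87 and 6.26 CPM in control 1 and at 5.98, 6.92, 5.77 and 4.13 in control 2, in no steady order. *Dcx* differed little with depth at E14.5, at 146, 105 and 90.1 CPM at the rim and 146, 127 and 120 beyond 350 µm. At E18.5 *Dcx* stood at 15.4 and 11.8 CPM at the rim and at 6.46 and 5.14 in the depth.

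With center and periphery set by a distance of 150 µm, *Il17b* at E14.5 was still higher in the center (0.62) and *Dcx* at E18.5 still lower (-0.63). *Dcx* at E14.5 turned to 0.24 (adjusted p = 0.019, edgeR), higher away from the edge, and *Il17b* at E18.5 came to -0.05 (adjusted p = 0.84). The sign of the *Dcx* difference at E14.5 thus depended on how the periphery was set.

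**Figure D4:**
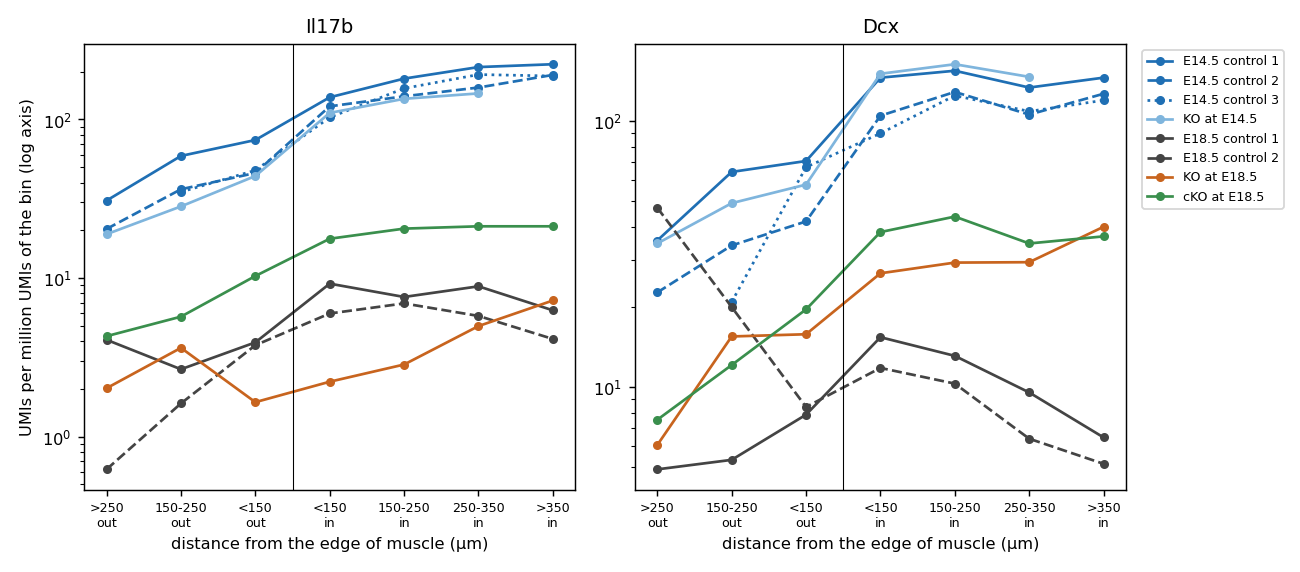
Level of both genes in bins of distance from the edge of muscle, outside (left of the line) and inside it, in UMIs per 1000000 on a log axis. Distance inside muscle is to the nearest other spot and outside it to the nearest muscle spot. Bins under 20 spots are left out. *Il17b* lies higher beyond 350 µm than at the rim in the E14.5 controls and shows no ordered run over the bins inside muscle in the E18.5 controls, and *Dcx* rises far outside muscle in E18.5 control 2, to 47.3.

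Inside the CaV1.1 knockout both genes also fell between the stages. In muscle *Il17b* stood at 130 CPM in the KO at E14.5 and at 3.74 at E18.5 (61 UMIs), and *Dcx* at 156 and 30.3. *Il17b* fell by 4.92 on the log2 scale (SE 0.35, adjusted p = 9.8e-05, edgeR) and *Dcx* fell by 2.17 (SE 0.29, adjusted p = 0.00098, edgeR). These are 30.3-fold and 4.51-fold, beside 16.8-fold and 10.1-fold in the controls, whose values chose the genes; whether the KO and the controls differ in this change was not tested. Among all genes tested 22.9% were called higher and 23.0% lower in the later KO.

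At E14.5 neither gene passed the threshold in the KO. *Il17b* stood at 130 CPM in the KO section, below the controls at 179, 146 and 176, and differed by -0.37 (SE 0.22, adjusted p = 0.47, edgeR). *Dcx* stood at 156, above the controls at 146, 116 and 115, and differed by 0.29 (SE 0.22, adjusted p = 0.56, edgeR). Few genes were called at this stage, 0.533% higher and 1.54% lower. E14.5 control 1, which like the KO lacks Y transcripts, had the highest value of the 3 controls for both genes, whereas the KO was above them in *Dcx* and below them in *Il17b*.

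At E18.5 the mutants parted. The comparisons with the E18.5 controls share those sections with the stage comparison that chose the genes, so the low control values are part of the choice. *Dcx* stood at 30.3 CPM in the KO and 37.9 in the cKO against 8.77 and 6.32 in the controls. It was 2.75-fold higher in the KO (log2 1.46, SE 0.25, adjusted p = 0.0062, edgeR) and 4.31-fold higher in the cKO (log2 2.11, SE 0.23, adjusted p = 0.0039, edgeR). *Il17b* stood at 3.74 CPM in the KO and 20.4 in the cKO against 7.20 and 4.75. It was 2.93-fold higher in the cKO (log2 1.55, SE 0.24, adjusted p = 0.011, edgeR). In the KO it was 2.33-fold lower (log2 -1.22, SE 0.33, adjusted p = 0.034, edgeR). Scaled to the 9 sarcomere genes the value turned to 0.18, with the median of all genes at 1.40, which puts *Il17b* at -1.22 relative to it. Such scaling moves all genes of a section alike, so the relative value repeats the TMM value by construction and is no further support.

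The call of *Il17b* in the KO at E18.5 was lost without E18.5 control 1 (-0.87, adjusted p = 0.058). It was also lost on plain library totals (-0.68, adjusted p = 0.11), where the median of all genes stood at 0.54. There *Dcx* was higher by 2.0 in the KO and 2.32 in the cKO, and *Il17b* by 1.77 in the cKO, all called. Of all genes 10.6% were called higher and 15.2% lower in the KO at E18.5, and 3.18% higher and 5.62% lower in the cKO. On plain library totals 90.6% of the calls in the KO and 79.9% of those in the cKO were higher, against 41.1% and 36.1% here. The cKO and the KO share no section, and their difference was tested directly. The cKO section carries Y transcripts and the KO section does not, so here too genotype and these transcripts cannot be told apart. *Il17b* was 6.82-fold higher in the cKO than in the KO (log2 2.77, SE 0.35, adjusted p = 0.0055, edgeR), where 4.43% of genes were called higher. *Dcx* differed by 0.65 (SE 0.28, adjusted p = 0.20, edgeR), which did not pass the threshold.

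After thinning to 5000 UMIs, 14.6% of muscle spots in the KO and 17.5% in the cKO held *Dcx*, and 1.92% and 9.70% held *Il17b*. In the other spots of the same sections these shares were 6.33% and 7.0% for *Dcx*, and 1.28% and 3.37% for *Il17b*. Unthinned, 40.3% and 58.1% of muscle spots held *Dcx* and 7.38% and 40.4% *Il17b*. No spot of the KO at E18.5 held more than 2 UMIs of *Il17b*, against 6 in the cKO.

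**Figure D5:**
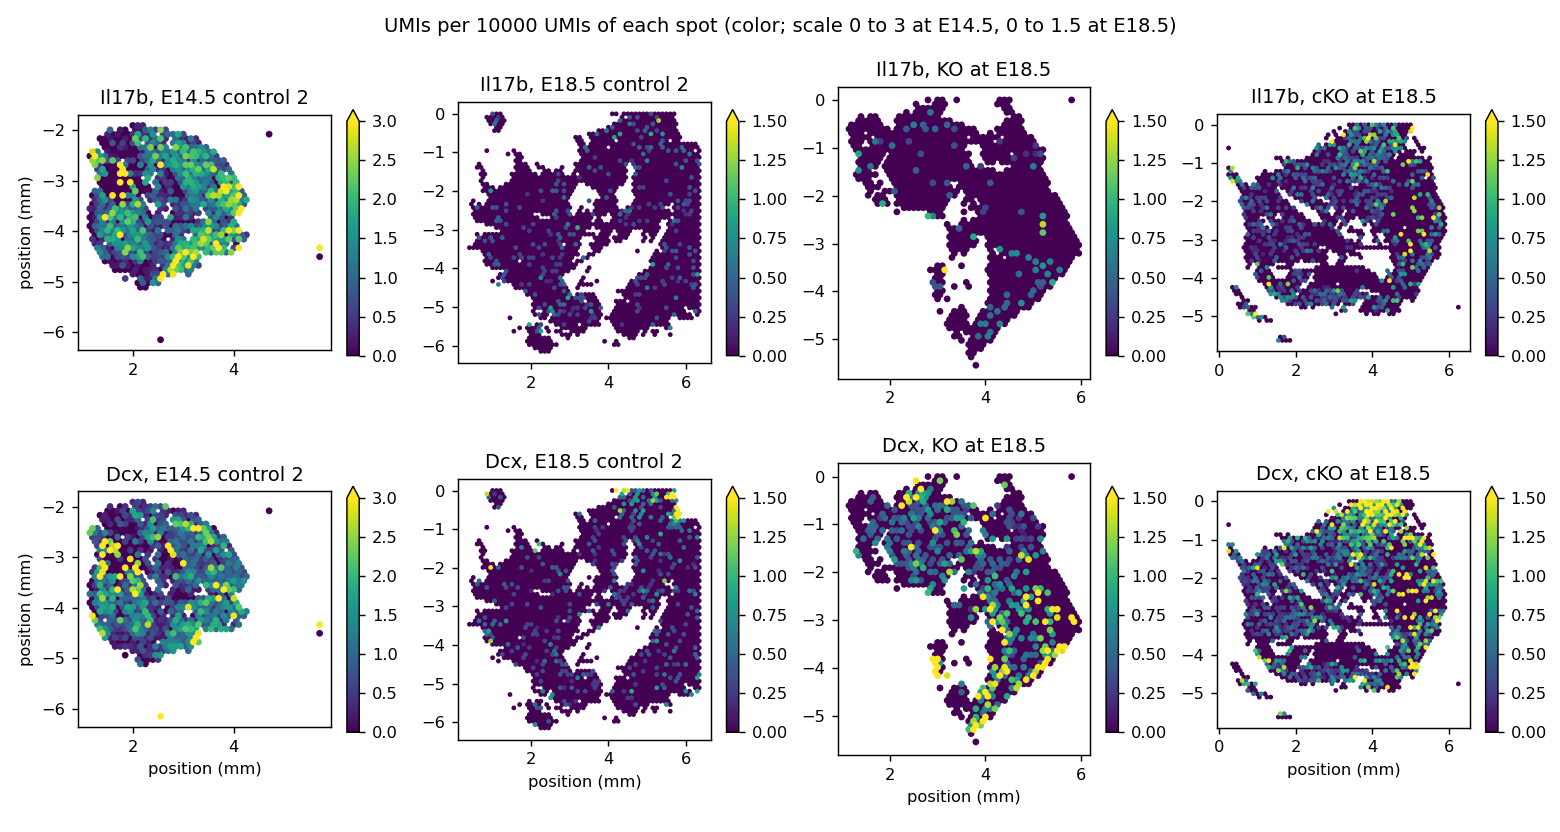
Spots of 4 sections, placed by their position in mm and colored by UMIs of *Il17b* (top) or *Dcx* (bottom) per 10000 UMIs of the spot, on a scale to 3 at E14.5 and to 1.5 at E18.5. In E18.5 control 2 many spots rich in *Dcx* lie together at the upper right edge, in the KO they are spread over the section, and in the cKO many lie at the upper edge. The map of *Il17b* is brighter in the cKO than in the other sections at E18.5.

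Within mutant muscle the genes were not evenly spread. In the cKO *Dcx* stood at 53.4 CPM in the center, 33.6 in between and 43.6 in the periphery, and *Il17b* at 24.2, 20.2 and 18.4. In the KO at E18.5 *Dcx* stood at 24.0, 23.2 and 80.4 CPM, and *Il17b* at 1.63, 3.79 and 6.07, from 4, 45 and 12 UMIs. The difference of center and periphery of *Dcx* in the cKO departed from that of the controls by 1.60 (SE 0.19, adjusted p = 5.3e-05, edgeR), and 0.347% of genes were called in this direction. Without the section as a block it was not called (1.60, adjusted p = 1.0). For *Il17b* in the cKO the departure was 1.07 (SE 0.27, adjusted p = 0.064, edgeR), and 2 of 13 alternatives called it, without a filter on low counts (1.07, adjusted p = 0.0087) and with regions of 10% (1.40, adjusted p = 0.040). In the KO neither gene departed past the threshold by the scored regions (*Dcx* -0.44, adjusted p = 0.69, and *Il17b* -1.21, SE 0.83, adjusted p = 0.74, edgeR), where 0.476% of genes were called in either direction.

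By distance from the edge, *Dcx* in the KO at E18.5 ran against the controls, from 26.8 CPM at the rim to 40.1 beyond 350 µm. That departure was 1.11 (adjusted p = 0.0081, edgeR), of the opposite sign to the scored regions. *Il17b* ran likewise, from 2.22 to 7.22 CPM, from 14 and 20 UMIs. In the cKO *Dcx* stood at 38.3 CPM at the rim and 36.9 in the depth, and *Il17b* at 17.7 and 21.2.

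The summed CPM of marker lists of several cell types differed in mutant muscle at E18.5, beside the differences of *Dcx* and *Il17b*. These sums rest on plain library totals and were not tested. On that scale the median of all genes stood at 0.54 in the KO and 0.21 in the cKO against the controls (log2). The 9 sarcomere genes summed to 71400 CPM in the KO and 105000 in the cKO against 128000 and 132000 in the controls. The 3 cycling genes stood at 333 and 278 CPM against 194 and 144, the 4 Schwann cell genes at 144 and 64.4 against 47.1 and 51.4, and the 8 endplate genes at 2020 and 1210 against 1050 and 1060. All genes of these lists have UMIs in muscle of every section. Genes of myogenic progenitors and myoblasts were higher in both mutants as well. The probes cover *Pax7*, *Myf5*, *Myog*, *Mymk* and *Mymx* of this list, the regulators of muscle progenitors, differentiation and fusion. All 5 have UMIs in muscle of every section, and their sum stood at 392 and 399 CPM in the E18.5 controls, 764 in the KO and 655 in the cKO, beside 1090 to 1360 in the E14.5 controls. In the 5% of spots richest in these genes, *Dcx* stood at 79.4 CPM against 31.2 elsewhere in the cKO, and at 55.6 against 23.8 in the KO at E18.5. *Il17b* stood at 38.1 against 16.9 CPM in the cKO and at 6.54 against 3.13 in the KO, from 6 UMIs. In E18.5 controls 1 and 2 the same spots held *Dcx* at 12.3 and 9.79 CPM against 8.43 and 7.62 elsewhere, and *Il17b* at 11.0 and 5.76 against 6.71 and 4.46. At E14.5 *Il17b* stood at 189, 214 and 178 CPM in these spots of controls 1, 2 and 3, against 138, 115 and 162 elsewhere. *Dcx* stood at 140, 91.2 and 116 against 117, 97.0 and 109. Elsewhere means all remaining spots of the section, inside and outside muscle. Of the rich spots 92.7%, 97.6% and 100% lay in muscle in E14.5 controls 1, 2 and 3. All muscle spots of these sections held *Il17b* at 179, 146 and 176 CPM and *Dcx* at 146, 116 and 115. Rich spots were not compared with the rest of muscle alone. Spots rich in the 4 myotendinous genes held more *Dcx* still in the KO at E18.5, at 86.2 CPM against 22.2 elsewhere. The same held in E18.5 controls 1 and 2, at 25.6 against 7.62 and 44.9 against 5.83. In the cKO it did not, at 46.1 against 32.1, below the 79.4 CPM of its progenitor-rich spots. The 4 myotendinous genes include *Uchl1*, and in control 2 80.2% of the spots lay in muscle. In that section the scored periphery of muscle held *Dcx* at 13.1 CPM and the 5% of spots richest in neuron genes at 49.1. The overlap with neuron-rich spots was not tested. In E18.5 control 2 the spots rich in cycling and Schwann cell genes held *Dcx* at 32.5 and 28.2 CPM, against 6.71 and 6.63 elsewhere. In control 1 such spots held it at 11.5 and 8.43 CPM, against 8.48 and 8.61. Of the cycling-rich spots of control 2, 27.0% lay in muscle. In that section the neuron-rich spots outside muscle hold 124 *Dcx* UMIs, and their part in these values was not tested. *Il17b* in the KO at E18.5 stood at 9.97 CPM (14 UMIs) in sarcomere-rich spots against 2.84 elsewhere. The other E18.5 sections went the opposite way, at 4.29 against 7.0 in control 1, 3.2 against 4.59 in control 2 and 12.4 against 18.1 in the cKO. The part of any of these cells in the differences between genotypes was not tested.

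The partners of each gene were read from lists of the pathway. *Il17rb*, the receptor subunit known to bind IL-17B, had between 0 and 3 UMIs in the muscle spots of each section and between 0 and 10 in the other spots. In muscle this is at most the limit that a count of 0 allows (3 UMIs). The highest counts in other spots were 10 in E18.5 control 1 and 6 in the KO at E18.5, and over the E18.5 controls *Il17rb* was called lower in muscle (-4.51, SE 1.06, adjusted p = 0.017, edgeR). *Il17ra*, the shared subunit, was measured at 3.10 to 6.23 CPM in muscle. *Il17rd*, an IL-17 receptor-like protein, stood at 12.8 to 25.7 CPM. It was lower in the center at E14.5 (-0.72, SE 0.15, adjusted p = 0.00080, edgeR) and at E18.5 (-0.74, SE 0.13, adjusted p = 0.00016, edgeR).

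*Il17re*, the receptor of IL-17C, stood at 0.0779 to 0.289 CPM in muscle of all 4 E14.5 sections, at 2.78 and 4.64 in the E18.5 controls, 4.17 in the KO and 1.06 in the cKO. It rose between the stages inside the KO (log2 4.02, adjusted p = 0.0023, edgeR) and was lower in the cKO than in the controls (-2.02, adjusted p = 0.045, edgeR). Of the 5 other ligands, *Il17d* was at 12.9 to 26.4 CPM, and *Il17a*, *Il17c*, *Il17f* and *Il25* reached at most 0.484 CPM in muscle of any section. In the KO and the cKO at E18.5 neither of the 2 other ligands tested was called, and 1 of 3 receptors was lower in each, where 15.2% and 5.62% of all genes were called lower. The adaptor *Traf3ip2* was called higher in the cKO (0.75, adjusted p = 0.030) and in the later KO section against the earlier (0.97, adjusted p = 0.0060, edgeR).

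Among the 8 relatives of *Dcx*, 5 were tested in the muscle sums and none passed the threshold in the KO or the cKO at E18.5. *Dclk1* came nearest, at -0.58 in the KO (adjusted p = 0.056) and 0.64 in the cKO (adjusted p = 0.057, edgeR), with 23.8 and 19.4 CPM in the controls, 21.1 in the KO and 39.2 in the cKO. The KO level thus lies within the controls on the CPM scale. *Dclk1* was 1.22 higher in the cKO than in the KO (adjusted p = 0.017, edgeR). The median of the 5 relatives was -0.34 in the KO and 0.46 in the cKO, beside 0.00 and -0.01 over all genes. Like *Dcx*, *Dclk1* was lower in the center than in the periphery at E14.5 (-0.41, adjusted p = 0.00079) and at E18.5 (-0.96, adjusted p = 1.6e-07, edgeR). Inside the KO 2 relatives fell between the stages (*Dclk1* by 1.58, *Dclk2* by 0.87) and 2 rose (*Dclk3* by 2.45 and *Dcdc2c* by 2.23 on the log2 scale). There 22.9% of all genes were called higher and 23.0% lower. The rises rest on 17 and 64 UMIs of *Dclk3* and 12 and 39 of *Dcdc2c* in KO muscle at E14.5 and E18.5. Of the 5 partners, *Nde1* was called higher in the KO at E18.5 (0.45, adjusted p = 0.018, edgeR), and no partner was called in the cKO. Against the E18.5 controls, 10.6% of all genes were called higher and 15.2% lower in the KO, and 3.18% and 5.62% in the cKO.

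A list of 9 cytoskeletal genes of young cells was read beside *Dcx*. Inside the KO, 8 of 9 fell between the stages, where 23.0% of all genes were called lower. *Tubb2b*, a β-tubulin, fell by 2.37 and *Nes*, an intermediate filament of progenitors, by 1.97 on the log2 scale. The median of the list was -1.26, beside 0.00 over all genes tested. At E18.5, 2 of 9 were called higher in the KO (*Marcksl1* 0.86 and *Stmn1* 0.83) and 3 lower (*Dpysl3* -1.69, *Nes* -1.29 and *Vim* -1.14), with a list median of -0.78, where 10.6% of all genes were called higher and 15.2% lower. In the cKO 2 were called higher (*Tubb6* 1.11 and *Marcksl1* 0.59), with a median of 0.30, where 3.18% of all genes were called higher.

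Over the 8 muscle sums, the genes with the level most like *Il17b* were *Slc1a4* (Pearson r of log2(CPM + 1) 0.996), *Tubb2b* (0.996), *Dclk1* (0.995), *Tubb2a* (0.995) and *Sytl2* (0.994), of 9627 genes with a mean of at least 10 CPM. For *Dcx* they were *Arpp21* (0.997), *Cox16* (0.997), *Ssbp3* (0.996), *Crlf3* (0.996) and *Akr1a1* (0.995). *Il17b* and *Dcx* themselves correlated at 0.91. All these points share the stages, which set most of their range. Over the 1701 muscle spots of the E14.5 controls, centered within section, *Il17b* was most like *Cdkn1c* (0.372), *Eno3* (0.343), *Tnnc2* (0.337), *Cox6a2* (0.314) and *Chrng* (0.309), the last being the fetal subunit of the acetylcholine receptor and 1 of the genes that set the center. *Dcx* was most like *Acta1* (0.288), *Tceal7* (0.271), *Myl4* (0.270), *Mylpf* (0.268) and *Csrp3* (0.254), of which *Acta1* and *Mylpf* are among the genes that set the muscle spots. The genes correlated with each other at 0.101 over these spots, and at 0.02 to 0.16 within the 8 sections. Spots share the depth of their library, with which *Il17b* correlated at 0.20 to 0.37 in the E14.5 controls.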

How the data were processed

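The authors made the deposited UMI counts per gene and spot with Space Ranger (the file headers give 2.0.0 for 3 of the 4 E14.5 sections and 2.0.1 for the rest) on the mm10 reference (GRCm38) with the mouse probe set v1.0, without normalization. They also deposited a score per gene, Moran's I, used here as given. Spot barcodes name positions on the array, and between 150 and 2153 are shared by 2 sections. The genes and lists were chosen with earlier results of these data known.

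Muscle spots lie above Otsu's threshold of the mean log-normalized value (10000 UMIs per spot) of 9 sarcomere genes. Center and periphery are those 15% of muscle spots that rank first by 8 endplate or 4 myotendinous genes, as mean z-scores (a spot in both went to its higher score). Distance runs from a muscle spot to the nearest other spot, and from an other spot to the nearest muscle spot. CPM values are UMIs of a gene per 1000000 UMIs summed over the spots of a region. Sections, not spots, are replicates. UMI sums were tested with edgeR 4.0.16 (filterByExpr, TMM, quasi-likelihood test, p adjusted after Benjamini-Hochberg over all genes tested, threshold 0.05), muscle against other spots and center against periphery with the section as a block, genotypes and stages in 1 fit of 8 muscle sums and 5 groups with 3 residual degrees of freedom. SE is the absolute log2 fold change over the square root of F. The edgeR steps were tested on simulated data. Genes were named by fixed lists and as the 5 most like each gene by Pearson r. Thinned shares are the expected shares after drawing 5000 UMIs from each spot. Poisson intervals are exact, at 95%, and cover counting error only. Alternatives were other size factors, no filter, DESeq2 1.42.0, other spot and region limits, each control section left out, all tissue spots and scaling to sarcomere genes. Added after seeing the data were the contrasts of differences, the cKO against the KO, fits without neuron-rich spots, the periphery without *Uchl1* and plain library totals. TMM factors of the muscle sums ran from 0.726 to 1.24. Images and the column of p-values that goes with the score were not used here.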

Additional observations from a re-analysis of the deposited data

Results flagged for a closer look

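The difference between the scored center and periphery of muscle changed between the stages in controls for both genes. Center minus periphery at E18.5 differed from that at E14.5 by -1.34 for *Il17b* and by -0.63 for *Dcx*, each past the threshold of edgeR. *Il17b* went from higher in the center in 3 of 3 sections to lower in 2 of 2, and *Dcx* was lower in the center in all 5. The enrichment of *Dcx* in muscle over other spots differed between the stages by -1.73, with the E18.5 sections on opposite sides. Without the neuron-rich spots, which hold most *Dcx* UMIs outside muscle of E18.5 control 2, this difference was -0.26. That is a description, since the spots were set apart after seeing the data.

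In the cKO, center minus periphery of *Dcx* departed from the E18.5 controls by 1.60, with 53.4 CPM in the center and 43.6 in the periphery of the cKO, beside 7.10 against 17.8 and 4.94 against 13.1 in the controls. *Il17b* differed between the cKO and the KO at E18.5 by 2.77. These rest on 1 section for each mutant, the cKO and the KO also differ in Y transcripts, and no cause was tested.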

How the results depend on the processing

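Of 346 values under alternatives, 307 counted as unchanged. For tested contrasts this means the same sign and the same side of the threshold. For the stages in controls, which carry no test, it means the same sign and a shift below the SD between control sections (0.28 for *Il17b* and 0.25 for *Dcx*, log2). Leaving out single controls gave -0.99 to 1.0 for *Dcx* in muscle against other spots at E18.5, -1.0 to -0.48 for *Il17b* in center against periphery at E18.5 and -1.49 to -0.87 for *Il17b* in the KO at E18.5. For the stages in controls it gave -4.42 to -3.81 (*Il17b*) and -3.60 to -3.12 (*Dcx*). Without neuron-rich spots *Dcx* in muscle at E18.5 turned to 1.43. The call of *Il17b* in center against periphery at E18.5 was lost with DESeq2 (-0.67), without the section as a block (-0.66) and by distance (-0.05), where *Dcx* at E14.5 turned to 0.24 and the departures of the KO from the controls turned to 1.34 (*Il17b*) and 1.11 (*Dcx*). Scaling to sarcomere genes, which moved the median of all genes by -3.19 to 1.40, gave -7.24 (*Il17b*) and -6.49 (*Dcx*) for the stages in controls, 0.20 and 0.87 (a new call) in the KO at E14.5, 0.18 for *Il17b* in the KO at E18.5 and -0.23 for *Dcx* in the cKO against the KO. On plain library totals the stages in controls differed by -4.79 (*Il17b*) and -4.05 (*Dcx*), and the call of *Il17b* in the KO at E18.5 was lost (-0.68). Over all tissue spots the stages differed by -3.02 for *Dcx*. The cause was not tested beyond what each alternative changes by its construction.

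The labels number controls 1 and 2 at both stages, but sections of different embryos and stages share only that number. The deviations of same-numbered sections correlated at -0.357 and -0.340, and with the number as a replicate block the stages differed by -4.08 (*Il17b*) and -3.43 (*Dcx*).

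Counts of called genes moved by over 1.5 times in some fits. For center against periphery, edgeR called 2603 genes at E14.5 and 2570 at E18.5, DESeq2 808 and 413, and fits without the section as a block 1110 and 635. Single controls left out gave 1351 to 2622 at E14.5 and 1300 and 1831 at E18.5, where regions of 25% gave 1697 and distance 5208. The stage difference there had 961 calls, with 134 by DESeq2, 92 without the block and 530 and 613 without E14.5 controls 2 and 1. The KO departures (65) came to 139 unfiltered, 8 by DESeq2, 35 with regions of 25%, 150 by distance, and 0 by edgeR without the block, with 536 genes there at an unadjusted p under 0.05. The cKO departures (101) came to 243, 10, 57 and, without the block, 1. Muscle against other spots at E14.5 (5790) gave 3110 without control 2, and its stage difference (2882) gave 1441 to 1566 without E14.5 control 2, E18.5 control 2 or the block, and 5892 on plain totals. The KO at E14.5 (308) had 536 unfiltered, 721 by DESeq2 and 65 without E14.5 control 3, the cKO (1305) had 826 without E18.5 control 2, and the cKO against the KO (1082) had 512 without E14.5 control 3.

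Plain library totals called 7997, 2826 and 2586 genes in the E18.5 KO (3819 by TMM), the cKO and the cKO against the KO. The share of calls that were higher was then 90.6%, 79.9% and 15.7%, against 41.1%, 36.1% and 60.7% by TMM. For muscle against other spots it was 27.6% and 15.2% at E14.5 and E18.5 against 58.3% and 54.7%, with 11.0% against 65.8% for their difference. For center against periphery it was 39.9% and 37.2% against 57.8% and 55.4%, with 47.5% and 59.8% against 35.4% and 46.5% for the KO and cKO departures, and for the stages in the KO 36.8% against 49.9%. Sarcomere scaling called 4939 genes in the E14.5 KO (96.8% higher, 25.6% by TMM), 12468 in the E18.5 KO (99.2%), 3886 in the cKO (94.0%), 8482 in the cKO against the KO (2.59%) and 12552 between the KO stages (2.37%; 6820 by TMM). With 61 *Il17b* UMIs in KO muscle at E18.5, depth limits its values by region there.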
